A study of Mus musculus with 16 samples.

Results

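The genes described here encode the isozymes and transporters of glucose use and storage in liver: uptake and phosphorylation of glucose, glycolysis, lactate handling, gluconeogenesis and glycogen turnover. They were chosen by name, and 35 of the 36 listed genes, of 23279 named genes measured, had an annotated probe set; Gpi1 had none and was not analysed here. Male mice aged 16 months gave 3 sets of liver samples, each hybridised to its own array. Control livers came from 3 mice (10, 11 and 12) without the Axin1 deletion. The other mice carried floxed Axin1 alleles and the Alfp-Cre transgene, which is active in hepatocytes from embryonic life, so adjacent liver and tumour came from animals with the same deletion; the Cre genotype of the controls is not given in the sources used here. Non-tumoral liver next to a tumour came from 5 such mice (121, 123, 124, 1931 and 81), and 8 tumours from 6 mice (121, 123, 124, 81, 90 and 93). Mouse 121 gave 3 tumours, of which 2 bear the numbers 2 and 3, and their mean counted as 1 value. All values are log2 expression values, and ± is the SD over mice unless SE is written.

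Most steps of glucose metabolism are served by more than 1 isozyme. Adult hepatocytes use forms suited to releasing as well as consuming glucose: the low-affinity transporter GLUT2 (Slc2a2), liver-type phosphofructokinase (Pfkl), pyruvate kinase L (Pklr), liver glycogen phosphorylase (Pygl) and liver glycogen synthase (Gys2), and the gluconeogenic enzymes Pck1, Fbp1 and G6pc. Fetal liver, muscle, brain and dividing cells rely on other forms, such as GLUT1 (Slc2a1), hexokinase 2 (Hk2), platelet-type phosphofructokinase (Pfkp), pyruvate kinase M (Pkm) and brain-type phosphorylase (Pygb). Here 9 members were classed as liver-type, 16 as fetal, muscle or widely expressed, and 10 were put in neither class.

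Promoters are shown for the 2 isozyme pairs that differed most between tumours and liver in the within-array ratios, brain and liver phosphorylase and the transporters GLUT1 and GLUT2. The sequences are RefSeq's (GRCm38.p6), 250 bases before to 50 after the most upstream start of the gene, 5′ to 3′. Capitals mark ACGTG, the core of the hypoxia response element, on either strand (on the other strand CACGT), and TATAAA on either strand. The windows are chr2:150786546-150786845, plus strand for Pygb; chr12:70227634-70227933, minus strand for Pygl; chr4:119108495-119108794, plus strand for Slc2a1; and chr3:28697653-28697952, plus strand for Slc2a2.
Pygb: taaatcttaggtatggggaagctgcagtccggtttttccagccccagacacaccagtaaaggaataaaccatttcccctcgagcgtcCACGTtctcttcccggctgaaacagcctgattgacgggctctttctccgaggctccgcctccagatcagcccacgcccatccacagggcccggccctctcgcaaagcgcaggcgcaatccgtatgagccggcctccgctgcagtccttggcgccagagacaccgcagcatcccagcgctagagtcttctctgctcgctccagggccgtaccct
Pygl: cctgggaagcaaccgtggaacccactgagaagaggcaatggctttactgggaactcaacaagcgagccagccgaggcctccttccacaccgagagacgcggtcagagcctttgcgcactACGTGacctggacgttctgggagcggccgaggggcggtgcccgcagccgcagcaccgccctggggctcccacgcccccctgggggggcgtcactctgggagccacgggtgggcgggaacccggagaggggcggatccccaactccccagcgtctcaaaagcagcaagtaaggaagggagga
Slc2a1: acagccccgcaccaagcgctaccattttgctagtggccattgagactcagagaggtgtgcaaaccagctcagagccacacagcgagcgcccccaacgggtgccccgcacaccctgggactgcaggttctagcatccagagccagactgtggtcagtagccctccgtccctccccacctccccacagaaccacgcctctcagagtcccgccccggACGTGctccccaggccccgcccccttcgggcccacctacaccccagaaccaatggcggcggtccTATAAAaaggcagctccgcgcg
Slc2a2: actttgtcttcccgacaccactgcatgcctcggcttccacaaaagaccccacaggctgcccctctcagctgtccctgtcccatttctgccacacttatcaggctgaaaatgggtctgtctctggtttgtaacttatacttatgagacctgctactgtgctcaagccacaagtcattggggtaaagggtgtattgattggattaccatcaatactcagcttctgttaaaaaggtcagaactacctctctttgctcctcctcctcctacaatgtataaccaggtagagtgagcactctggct
ACGTG stood in the windows of Pygb, Pygl and Slc2a1 and not in that of Slc2a2. Of 32 members with a promoter in the table (Slc2a3, Ndrg1 and Gys2 had none), 15 held ACGTG on either strand, or 46.9%, against 19.6% of 27025 genes. TATAAA stood in 3 members, Slc2a1, G6pc and Eno2, or 9.38% against 14.2%. The members' windows also held more G and C (median 59.5% against 52.7%). Liver-type members held ACGTG in 2 of 8 windows and had a median G and C content of 54.7%, and the fetal, muscle or widely expressed members in 8 of 15 with 58.7%. Members in neither class held it in 5 of 9 with 65.0%. ACGTG contains the base pair step CG. The median ratio of observed to expected CG was 0.64 in members and 0.39 over all genes. By class it was 0.29 (liver-type), 0.60 (fetal, muscle or widely expressed) and 0.77 (neither).

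Axin1 itself was at 5.07 to 5.48 in the 3 controls, 3.90 to 4.39 in adjacent livers and 3.95 to 4.81 in tumour mice, so both deleted groups lay below every control; adjacent minus control was -1.06 (SE 0.18, adjusted p = 0.255). Whether its probe set lies in the deleted exons is not given in the sources used here. Hepatocyte markers were high on every array, with list means (7 of 8 markers measured) of 11.5 to 11.8 in controls, 11.6 to 11.8 in adjacent liver and 11.4 to 11.7 in tumours. Control 10 stood apart in leukocyte markers: its mean over macrophage and Kupffer cell markers was 9.09, against 6.57 and 5.70 in controls 11 and 12, and over neutrophil markers 6.03, against 3.98 and 3.83. Control 10 was also the highest control for 12 of the 16 fetal, muscle or widely expressed members, Hk1, Hk2, Hk3, Pkm and Pygb among them. The share of all genes highest in control 10 was not computed, so this count has no background beside it. Among adjacent livers, that of mouse 121 had the highest lymphocyte mean (4.87, the others 3.68 to 3.95) and macrophage and Kupffer mean (7.48, the others 5.95 to 6.88). In the same class it was the highest for Slc2a3, Hk1, Hk2, Hk3, Pfkp, Aldoa, Pkm, Ldhb and Pygb. It was the lowest for Aldoc (6.13) and Eno2 (2.43). The part of leukocytes in these values was not tested. In whole tissue, fewer cells of a type and less RNA per cell cannot be told apart. Of the 35 members 29 lay above 4.45, the median over every deposited value, in 3 or more arrays; Slc2a3, Hk1, Aldoa, Pgam1, Eno2 and Pygm did not, and differences of such dim probe sets are compressed.

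The comparison of tumours with adjacent liver asks which isozymes change as the tumour forms. Most differences were small and did not pass the test, and most liver-type members had the opposite sign to most other members. Of the 9 liver-type genes 8 had a negative difference, with a median log2 difference of -0.63, and of the 16 fetal, muscle or widely expressed genes 15 had a positive one, with a median of 0.21; the median over all genes was -0.03. The exceptions were Pfkl, which was higher, and Ldhb, which was lower. Of the 10 members in neither class 7 had a positive difference, with a median of 0.19, so the positive sign was not particular to the second class. Over all genes 44% of differences were positive. With limma over all genes 1 member passed an adjusted p under 0.05, Pygb, which rose, and 0 fell; over all genes 0.155% passed, 0.142% by rising and 0.0129% by falling. With mouse 121 as the mean of its tumours, the groups did not overlap in 2 members that were higher in tumours, Pygb and Ndrg1. They did not overlap either in 1 that was lower, Pck1. Over all genes such separation was found in 1.12% upward and 1.11% downward. At an unadjusted p under 0.05 stood 14 of 35 members and 3556 of 23279 genes. These medians and counts describe genes chosen with earlier results known, and they are no test of the classes.

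**Figure D1:**
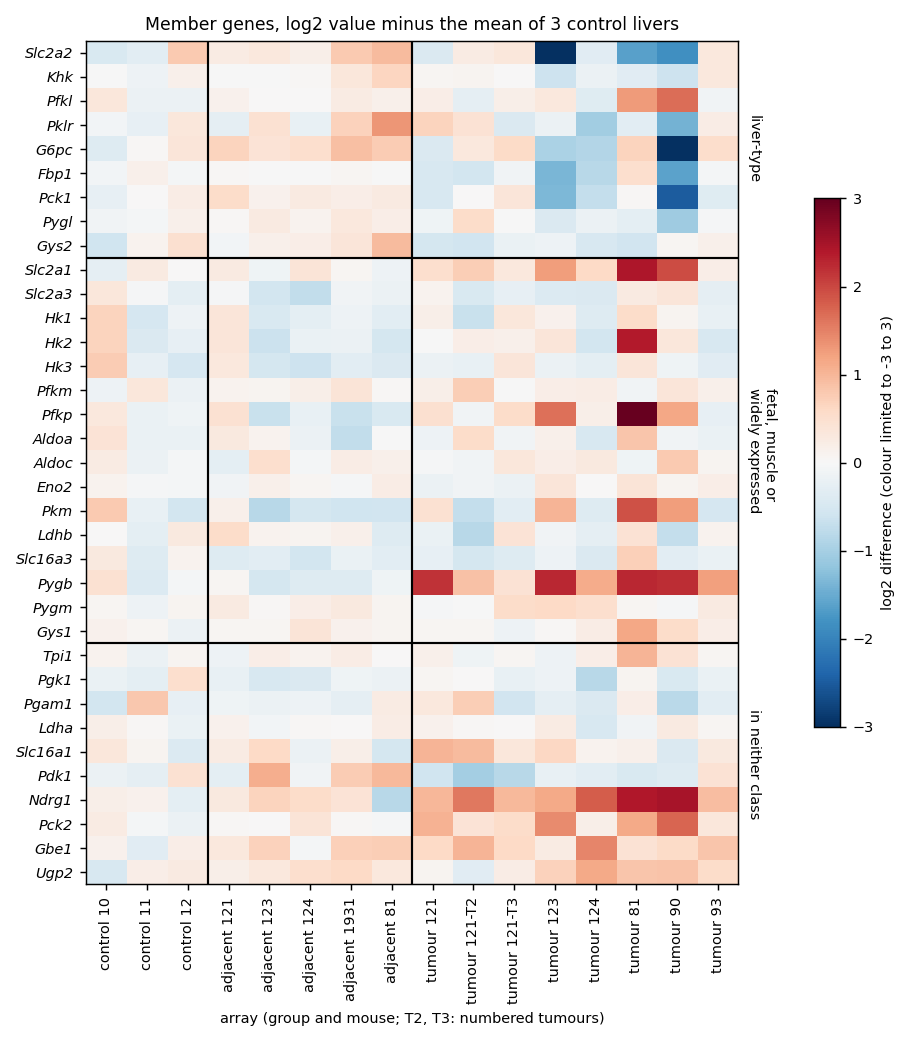
Each cell is the log2 value of a member on 1 array minus the mean of the 3 control livers (colour scale limited to -3 to 3), with genes in rows by class and arrays in columns by group. Pygb and Ndrg1 are above the control mean on all 8 tumour arrays, whereas G6pc, Fbp1 and Pck1 are lowest in tumour 90.

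Pygb (Entrez gene 110078) encodes the brain form of glycogen phosphorylase, which releases glucose 1-phosphate from glycogen and is the form of fetal tissues. It measured 6.10, 5.23 and 5.58 in controls 10, 11 and 12. Adjacent livers of mice 121, 123, 124, 1931 and 81 were at 5.68, 5.10, 5.26, 5.26 and 5.50. Tumour mice ran from 6.75 (mouse 124) through a median of 7.36 to 7.91 (mouse 81). Each tumour mouse lay above every control and adjacent liver. The tumour mean was 7.35 ± 0.60 (SD, n = 6) and the adjacent mean 5.36 ± 0.23 (SD, n = 5). The gene rose by 1.98 on the log2 scale (SE 0.26, 3.95-fold, limma adjusted p = 0.00863), and it was higher in 6 of 6 tumour mice. The adjusted p lay between 0.00353 and 0.0437 with each of 14 mice left out in turn. In the 4 mice that gave both tissues, with each animal fitted as its own block, the difference was 1.95 and the call was lost (adjusted p = 0.111).

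The 3 tumours of mouse 121 differed in Pygb as much as tumours of different mice. The unnumbered tumour was at 7.82, tumour 2 at 6.51 and tumour 3 at 6.08, which is below control 10. Their range of 1.73 exceeded the range of 1.16 over the 6 mice. This held for 5 of 35 members (Hk1, Pfkm, Pgam1, Ldhb and Pygb) and for 22.4% of all genes.

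The other phosphorylases had no call. Pygl, the liver form, was at 9.44 ± 0.42 (SD, n = 6) in tumours and 9.94 ± 0.11 (SD, n = 5) in adjacent liver (log2 difference -0.51, SE 0.17, adjusted p = 0.174). Pygm, the muscle form, was dim in every group, at 3.59 ± 0.25 (SD, n = 6) in tumours and 3.50 ± 0.12 (SD, n = 5) in adjacent liver. The mean over 8 skeletal muscle markers stayed between 3.42 and 3.77 on all 16 arrays. Neither difference passed the test.

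Among the enzymes that build glycogen, the liver synthase Gys2 was at 8.04 ± 0.30 (SD, n = 6) in tumours, whereas adjacent livers were at 8.60 ± 0.38 (SD, n = 5) (-0.55, SE 0.22, adjusted p = 0.235). The widely expressed synthase Gys1 differed by 0.21 (SE 0.18), with its highest value, 5.55, in tumour 81. Gbe1, the branching enzyme, was at 9.00, 8.53 and 9.06 in controls and at 9.18, 9.56, 8.81, 9.57 and 9.60 in adjacent livers 121, 123, 124, 1931 and 81. Tumour mice had Gbe1 values from 9.11 (mouse 123) through 9.52 to 10.3 (mouse 124). Tumours did not overlap with controls in this gene (0.72, SE 0.24, adjusted p = 0.235) but did with adjacent liver (0.23, SE 0.21). Ugp2, which makes UDP-glucose for glycogen, differed from adjacent liver by 0.30 (SE 0.19) and from control by 0.68 (SE 0.22), neither past the threshold.

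The glucose transporters moved apart, but only in some tumours. Slc2a1, the GLUT1 gene of fetal and growing cells, was at 7.20, 7.74 and 7.48 in controls and at 7.75, 7.35, 7.87, 7.53 and 7.31 in adjacent livers 121, 123, 124, 1931 and 81. Tumour mice spanned 7.67 (mouse 93) to 9.89 (mouse 81), with a median of 8.40. Tumours 81, 90 and 123 were the highest, at 9.89, 9.43 and 8.72, and tumour 93 lay among the livers. The difference from adjacent liver was 1.07 (SE 0.34, adjusted p = 0.147), and 1.26 with adjusted p = 0.0471 without tumour 93. Slc2a2, the GLUT2 gene of hepatocytes, was at 8.33, 8.49 and 9.57 in controls and at 9.05, 9.12, 8.98, 9.57 and 9.74 in the same order of adjacent livers. Its tumour values ran from 5.82 (mouse 123) through a median of 7.82 to 9.12 (mouse 93). The 3 tumours highest in Slc2a1 were the 3 lowest in Slc2a2, at 7.17 (81), 6.95 (90) and 5.82 (123). The difference was -1.57 (SE 0.50, adjusted p = 0.151). Slc2a3, a high-affinity neuronal and leukocyte transporter, was dim, at 3.62 ± 0.34 (SD, n = 6) against 3.41 ± 0.30 (SD, n = 5).

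**Figure D2:**
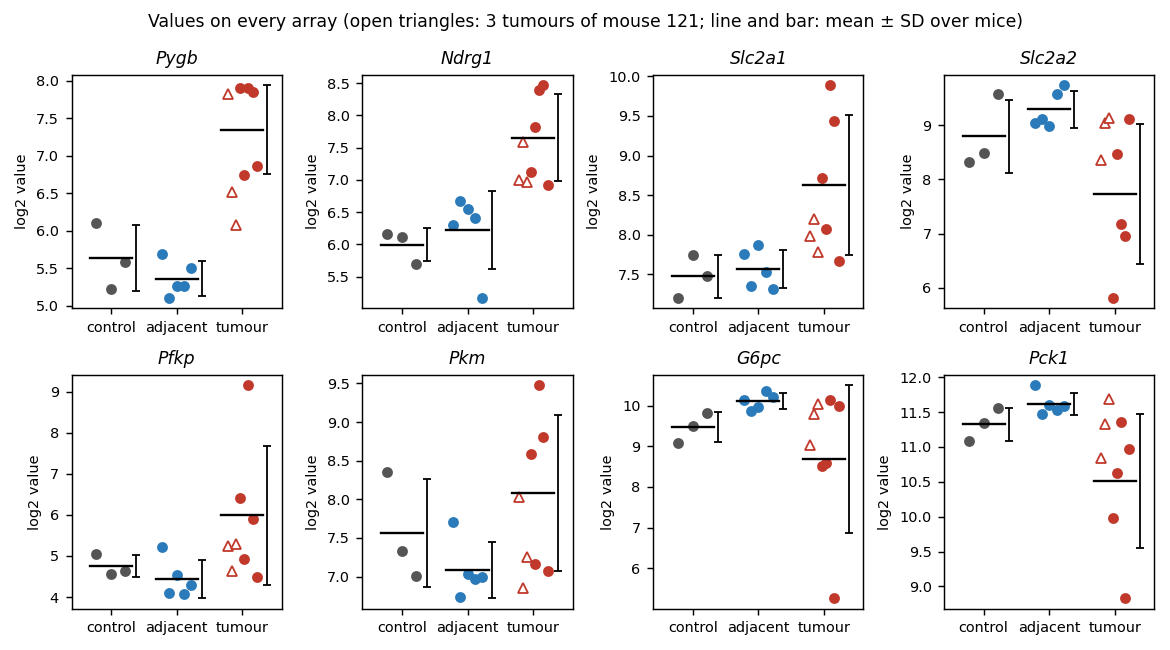
Log2 values of 8 members on each of the 16 arrays by group; circles are single arrays, open triangles the 3 tumours of mouse 121, and the line and bar are the mean ± SD over mice. All tumour mice exceed the other groups in Pygb and Ndrg1, whereas Slc2a1, Slc2a2, Pfkp, Pkm, G6pc and Pck1 spread widely among tumours.

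Hexokinases trap glucose in the cell. Hk2, the insulin-regulated form of muscle and many tumours, was high in 1 tumour only: tumour 81 was at 7.10, whereas the other 5 tumour mice lay between 4.17 and 5.08, and controls between 4.30 and 5.39. The difference from adjacent liver was 0.60 (SE 0.42). Hk1, the housekeeping form, and Hk3, the form of myeloid cells, differed by 0.20 (SE 0.22) and 0.22 (SE 0.22). Both were highest in control 10, at 4.72 and 5.04. Khk, ketohexokinase, opens fructose breakdown in liver. It was at 9.67 ± 0.38 (SD, n = 6) in tumours against 10.10 ± 0.29 (SD, n = 5), a difference of -0.43 (SE 0.18). None of the 4 passed the test.

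Phosphofructokinase commits sugar to glycolysis. Its platelet-type gene Pfkp was at 5.06, 4.56 and 4.63 in controls and at 5.21, 4.09, 4.53, 4.08 and 4.30 in adjacent livers 121, 123, 124, 1931 and 81. Tumour mice ran from 4.49 (mouse 93) through a median of 5.48 to 9.15 (mouse 81). Tumour 123 followed at 6.41 and tumour 90 at 5.91, and the other tumour mice overlapped the livers. Taken alone, the unnumbered tumour and tumour 3 of mouse 121 were at 5.23 and 5.29, just above the highest liver (5.21). The difference of 1.55 (SE 0.63, adjusted p = 0.251) was 0.91 without tumour 81. The liver-type gene Pfkl went the same way in tumours 81 and 90, at 7.08 and 7.49 against 5.45 to 6.15 on the other 14 arrays, so it was the liver-type member with a positive difference (0.36, SE 0.31). Pfkm, the muscle form, differed by 0.03 (SE 0.12).

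Pyruvate kinase closes glycolysis. Its genes were picked for more detail after their values were seen. Pkm was at 8.35, 7.33 and 7.01 in controls 10, 11 and 12 and between 6.73 and 7.70 in adjacent livers. Tumours 81, 90 and 123 were at 9.47, 8.81 and 8.59, above every liver, whereas tumours 93 and 124 were at 7.07 and 7.17. The difference was 0.996 (SE 0.41, adjusted p = 0.262). Pklr, the form of hepatocytes and red cells, was at 7.73 ± 0.68 (SD, n = 6) against 8.54 ± 0.67 (SD, n = 5), a difference of -0.81 (SE 0.34, adjusted p = 0.258). Its lowest values were 6.72 in tumour 90 and 7.10 in tumour 124. The remaining enzymes of the pathway differed little: Aldoa, Aldoc, Tpi1, Pgk1, Pgam1 and Eno2 had differences between -0.14 and 0.19, with none past the test. Tpi1, triose phosphate isomerase, was highest in tumour 81 at 10.5, against 9.31 to 9.92 elsewhere.

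Genes of lactate and pyruvate showed no call. Ldha, the lactate dehydrogenase subunit that dominates in liver, was at 10.17 ± 0.27 (SD, n = 6) in tumours and 10.23 ± 0.12 (SD, n = 5) in adjacent liver (-0.06, SE 0.13), and Ldhb, the heart subunit, differed by -0.23 (SE 0.20). The lactate transporters Slc16a1 and Slc16a3 differed by 0.20 (SE 0.23) and 0.23 (SE 0.19), with tumour 81 the highest for Slc16a3 at 5.47. Pdk1, a kinase that shuts off pyruvate dehydrogenase, was lower, at 6.80 ± 0.41 (SD, n = 6) against 7.58 ± 0.64 (SD, n = 5), a difference of -0.78 (SE 0.28, adjusted p = 0.19).

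Ndrg1, a gene induced by low oxygen and cell stress and used here as a marker of hypoxia, was higher in every tumour mouse. Controls were at 6.16, 6.12 and 5.70, and adjacent livers 121, 123, 124, 1931 and 81 at 6.30, 6.67, 6.55, 6.41 and 5.17. Tumour mice ran from 6.93 (mouse 93) through 7.50 to 8.47 (mouse 90), with mouse 81 at 8.39. Tumours did not overlap with either liver group. The difference from adjacent liver was 1.43 (SE 0.32, 2.70-fold, adjusted p = 0.0718) and missed the threshold over all genes. It passed when mouse entered as a random block (1.33, adjusted p = 0.0472), with dim probe sets filtered out (adjusted p = 0.0466) and without tumour 93 (1.58, adjusted p = 0.0226). It missed in the other alternatives, with adjusted p = 0.258 in the fixed block of 4 mice and up to 0.167 with 1 mouse left out.

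The liver-type gluconeogenic genes had negative differences, with tumour 90 lowest in each of the 3. Pck1, cytosolic phosphoenolpyruvate carboxykinase, was at 11.08, 11.35 and 11.55 in controls and at 11.88, 11.47, 11.61, 11.53 and 11.58 in adjacent livers 121, 123, 124, 1931 and 81. Tumour mice ran from 8.83 (mouse 90) through 10.79 to 11.36 (mouse 81). No tumour mouse reached the lowest adjacent liver, and the tumours did overlap with the controls. For mouse 121 this holds for the mean of its tumours (11.28). Its tumour 3 alone was at 11.68, within the adjacent livers. The difference from adjacent liver was -1.11 (SE 0.35, adjusted p = 0.152).

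G6pc, the glucose 6-phosphatase that frees glucose for export, was at 9.08, 9.50 and 9.82 in controls and at 10.13, 9.87, 9.97, 10.36 and 10.22 in the same adjacent livers. Its tumour values had a median of 9.11 and reached 10.13 in mouse 81, but tumour 90 was at 5.26. The difference from adjacent liver was -1.43 (SE 0.65, adjusted p = 0.316), and -0.74 without tumour 90. Fbp1, fructose bisphosphatase, was at 10.79 ± 0.029 (SD, n = 5) in adjacent liver and spread over 9.17 (mouse 90) to 11.3 (mouse 81) in tumours (-0.63, SE 0.30). Pck2, the mitochondrial carboxykinase found in many cell types, lay the other way, at 5.44 ± 0.62 (SD, n = 6) against 4.61 ± 0.17 (SD, n = 5), a difference of 0.83 (SE 0.24, adjusted p = 0.127). Pck2 was highest in tumour 90 at 6.26 and passed without tumour 93.

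**Figure D3:**
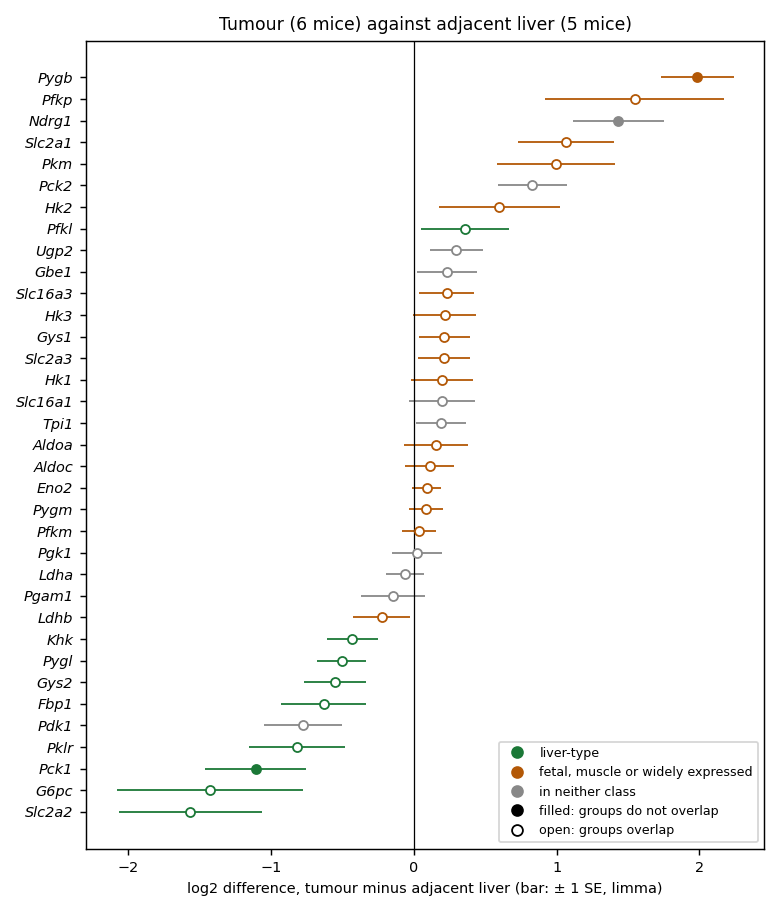
Log2 difference of each of the 35 members, tumour minus adjacent liver, with bars of ± 1 SE from limma; colour gives the class and filled points are genes whose groups do not overlap. Pygb at 1.98 is the member past the threshold, and of the 9 liver-type genes 8 lie left of 0.

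Within an array the ratio of a non-liver to a liver isozyme shows unequal change of the 2 genes, not which of them moved. Set against the control mean, the Pygb to Pygl log2 ratio was shifted by 2.02 ± 0.95 (SD, n = 6) in tumours and by -0.47 ± 0.32 (SD, n = 5) in adjacent liver, and all 6 tumour mice exceeded every liver. Pck2 to Pck1 behaved likewise, at 1.74 ± 1.45 (SD, n = 6) against -0.20 ± 0.23 (SD, n = 5), also in 6 of 6. For mouse 121 this holds for the mean of its tumours: tumours 2 and 3 alone were at 0.33 and 0.45 for Pygb to Pygl and at 0.41 and 0.20 for Pck2 to Pck1, below control 10 (0.58 and 0.50). For Slc2a1 to Slc2a2 the shift was 2.22 ± 2.01 (SD, n = 6), and 4 of 6 tumour mice exceeded every liver: mouse 123 at 4.23, mouse 81 at 4.04, mouse 90 at 3.81 and mouse 124 at 0.93. Pygm to Pygl exceeded every liver in 5 of 6. Pkm to Pklr and Pfkp to Pfkl exceeded every liver in 3 of 6 tumour mice each. Tumour 90 was high for Pkm to Pklr (2.67) and not for Pfkp to Pfkl (-0.52). The ratios Pfkm to Pfkl, Gys1 to Gys2 and Ldhb to Ldha exceeded every liver in 1 of 6. These ratios were not tested, since the members were chosen with results known.

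**Figure D4:**
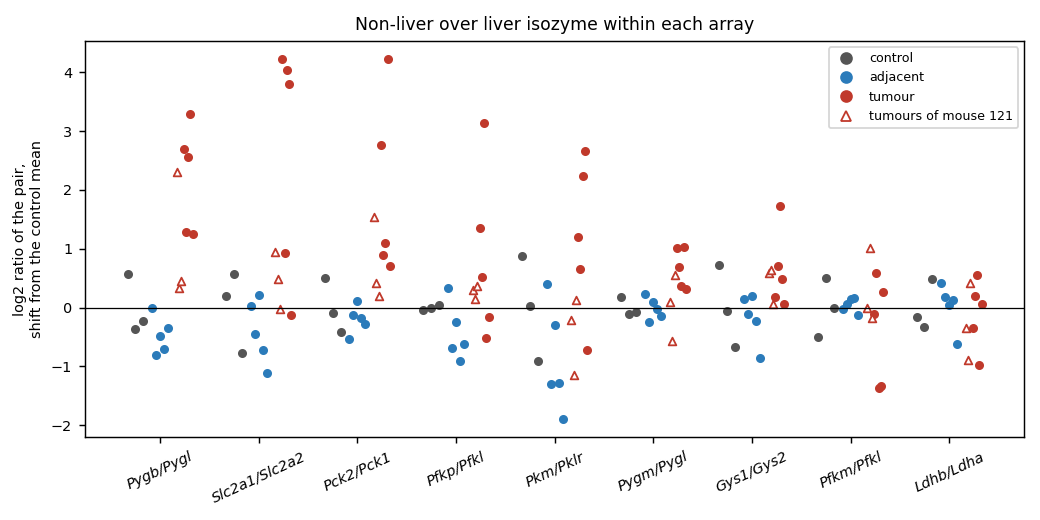
Log2 ratio of a non-liver to a liver isozyme on each array, as a shift from the mean of the 3 controls, for 9 pairs; colours are the groups and open triangles the 3 tumours of mouse 121. Tumour points for Pygb/Pygl lie up to 3.29 and liver points at or under 0.58, with tumours 2 and 3 of mouse 121 (0.33 and 0.45) within the livers.

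Tumours differed from one another in which members left the range of the 8 non-tumour livers. In tumour 81, 15 members were above every liver (16.2% of all genes) and 5 below (19.5%). In tumour 90 the counts were 13 above (17.2%) and 10 below (20.7%), and in tumour 123 they were 11 above (16.1%) and 6 below (20%). Tumour 124 had 6 above (11.8%) and 10 below (14.3%). Among transporters, hexokinases and glycolytic enzymes, those above in tumour 81 were Slc2a1, Hk2, Pfkl, Pfkp, Aldoa, Tpi1, Eno2 and Pkm, of which Aldoa (4.62) and Eno2 (2.93) are dim. Of the same kinds, Slc2a2 (7.17), Khk (9.56) and Pklr (7.82) were below every liver in tumour 81. Pfkm, Aldoc, Pgk1, Pgam1 and Ldha lay within the livers there, at 4.05, 6.29, 6.20, 3.06 and 10.05. Slc2a3, Hk1 and Hk3 lay within the livers as well. Of those above in tumour 81, tumour 90 shared Slc2a1, Pfkl, Pfkp, Tpi1 and Pkm, and it also had Slc2a2, Khk and Pklr below. In tumour 81 the gluconeogenic genes were not low (Fbp1 was above every liver, at 11.3), whereas in tumour 90 G6pc, Fbp1 and Pck1 were all below.

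The unnumbered tumour of mouse 121 had 6 members above (13.7%) and 6 below (17.9%), tumour 2 had 9 above (14.2%) and 6 below (18.7%), and tumour 3 had 4 above (9.57%) and 5 below (12.8%). Tumour 93 had 3 above (10.5%), Ndrg1, Pygb and Gbe1, and 1 below (10.7%), Pck1. As a share of 35 members, 3 is below the all-gene share and so is 1. The range over 6 tumour mice was wider than that over 5 adjacent livers for 32 of 35 members, against 62% of all genes, with 1 more mouse in the tumour group.

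In the 4 mice that gave both tissues, the tumour minus its own adjacent liver was positive in 4 of 4 for Pygb, at 1.12 (mouse 121), 2.80 (123), 1.49 (124) and 2.40 (81). Ndrg1 was likewise positive, at 0.88, 0.46, 1.26 and 3.22 in the same order, and so was Slc2a1, at 0.24, 1.37, 0.21 and 2.58. Slc2a2 was lower in 4 of 4, by small amounts in mice 121 (-0.20) and 124 (-0.52) and by large ones in 123 (-3.31) and 81 (-2.57). G6pc, Pck1, Gys2 and Pdk1 were also lower in 4 of 4. Pfkp split the mice, at -0.16 and 0.39 in mice 121 and 124 and at 2.32 and 4.86 in 123 and 81, and Pkm did the same (-0.32, 0.14, 1.86 and 2.48). When mouse was a fixed replicate block 0 members passed, and as a random replicate block 2 did, Ndrg1 and Pygb.

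**Figure D5:**
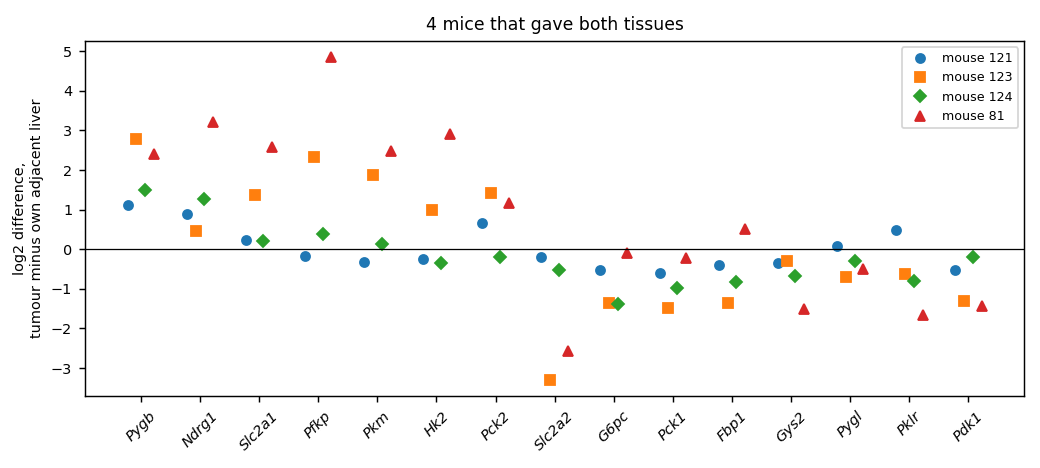
Tumour minus own adjacent liver, in log2 units, for 15 members in the 4 mice that gave both tissues (mouse 121 as the mean of its 3 tumours); each marker is 1 mouse. All 4 markers lie above 0 for Pygb, Ndrg1 and Slc2a1 and below 0 for Slc2a2, G6pc, Pck1, Gys2 and Pdk1.

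The comparison of adjacent with control liver sets deleted liver next to a tumour against liver without the deletion. The deletion, bearing a tumour and nearness to a tumour cannot be told apart here, and the Cre genotype of the controls is not given. No member passed with limma (0 of 35, 0 at an unadjusted p under 0.05; over all genes 0% passed, with 1059 at an unadjusted p under 0.05). All 9 liver-type members had a positive difference, with a median of 0.29 against -0.01 over all genes. So did 8 of the 10 members in neither class (median 0.08) and 48.5% of all genes. Gbe1, at 0.48 (SE 0.25), had the smallest unadjusted p of the members. G6pc was the member whose groups did not overlap upward (0.65, SE 0.79), where 2.18% of all genes did so, and 0 members did so downward, where 2.04% did. The SE came from the fit of all 3 groups, so tumour spread enters the tests of this comparison. The SD of G6pc was 1.81 in tumours, 0.19 in adjacent liver and 0.37 in control. Fitted with only the 2 groups compared, G6pc had a limma adjusted p of 0.708, and 0 members passed. The fetal, muscle or widely expressed class had a median of -0.14, which turned to 0.085 without control 10, the array high in leukocyte markers. Without control 12 the liver-type median was 0.40 and without adjacent 81 it was 0.16. Pygb was at -0.28 (SE 0.31) and Pkm at -0.48 (SE 0.50) in this comparison, both negative and neither past the test.

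Tumours against control liver used the same tumours as the comparison with adjacent liver, and Slc2a1 (1.15, SE 0.39) and Pfkp (1.24, SE 0.73) were again high without passing the test. Pkm (0.52, SE 0.48), Pklr (-0.42, SE 0.39) and Pdk1 (-0.29, SE 0.32) were smaller in size than against adjacent liver, and Gbe1 and Ugp2 were larger. With limma 0 of 35 members passed (0.0258% of all genes did, 0.0129% upward and 0.0129% downward), although 6 members and 2917 genes had an unadjusted p under 0.05. Pygb differed by 1.71 (SE 0.30, 3.27-fold, adjusted p = 0.0564). It passed without tumour 93 (adjusted p = 0.0209) or tumour 90 (0.0474), and missed without control 10 (1.94, adjusted p = 0.0623), which was the highest control. Ndrg1 differed by 1.66 (SE 0.37, adjusted p = 0.106), and passed without tumour 93 (adjusted p = 0.0369). The groups did not overlap upward in 3 members, Pygb, Ndrg1 and Gbe1, where 2.11% of all genes did, and in 0 downward, where 3.08% did. The liver-type median was -0.42, against -0.04 over all genes. It was 0.20 for the fetal, muscle or widely expressed members and 0.26 for those in neither class. G6pc was at -0.78 (SE 0.76) and Pck1 at -0.82 (SE 0.41) here, smaller in size than against adjacent liver, in which both were above control (0.65 and 0.29).

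Of 74 further genes of glucose, glycogen and pentose phosphate metabolism 61 were measured, and 0 passed with limma in any of the 3 comparisons (16 had an unadjusted p under 0.05 against adjacent liver). Their median log2 differences were -0.11 for tumour against adjacent, -0.09 for tumour against control and 0.10 for adjacent against control. Gckr, a regulatory protein of liver sugar metabolism, was lower in 6 of 6 tumour mice than in any adjacent or control liver: tumours spanned 8.48 (mouse 90) to 9.50 (mouse 93) and livers 9.59 to 9.92 (-0.62, SE 0.16, adjusted p = 0.0929). Slc37a4, which carries glucose 6-phosphate to G6pc, differed by -0.83 (SE 0.24, adjusted p = 0.131). Named after their values were seen, Pgm2, a phosphoglucomutase, differed by 0.82 (SE 0.21, adjusted p = 0.0929), and Ppp1r3b, the subunit that targets protein phosphatase to liver glycogen, by -1.09 (SE 0.37, adjusted p = 0.168). Ppp1r3b was lowest in tumours 81 (6.46) and 123 (6.86).

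Other genes induced by hypoxia divided the tumours. Of 20 such genes 0 passed with limma in any comparison (3 had an unadjusted p under 0.05 against adjacent liver), and the median difference from adjacent liver was 0.35 against -0.03 over all genes. The list mean was 7.40 in tumour 90 and 7.06 in tumour 81, whereas the other 6 tumour arrays lay between 6.10 and 6.21 the adjacent livers between 6.07 and 6.30, and the controls at 6.10 or less. In tumours 81 and 90 alike 14 of the 20 genes were above every liver (16.2% and 17.2% of all genes). Those below every liver numbered 1 and 2 (19.5% and 20.7%). In tumour 123, 7 were above (16.1%) and 6 below (20%). The other tumours had 1 to 4 above (9.57% to 14.2%) and 1 to 6 below (10.7% to 18.7%). Ankrd37, an ankyrin repeat protein gene, was at 8.45 in tumour 90 and 6.23 in tumour 81, against 3.97 to 5.07 elsewhere. Egln3, an oxygen-sensing prolyl hydroxylase, was at 7.79 and 8.59 in the same tumours. Ndrg1 and Slc2a1 were also highest in these 2 tumours, and Pygb was as high in tumour 123 (7.90) as in them (7.85 and 7.91). The unnumbered tumour of mouse 121, with a hypoxia list mean of 6.15, had Pygb at 7.82. Other members differed: in tumours 81 and 90 Pdk1 was at 6.64 and 6.72, below every liver. Pgk1 was at 6.20 and 5.66 there, within the livers, and Ldha at 10.05, within them, and 10.43, above them. The part of hypoxia in the members' values was not tested.

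Markers of other cells moved with the tumours as well. The mean over 7 proliferation markers was 4.31 in tumour 90, within the range of the livers (3.87 to 4.99), and between 5.42 and 6.86 in the other tumour arrays. Tumours 123, 81 and 90, with the highest Pkm, had macrophage and Kupffer means of 4.99, 5.20 and 5.57, below the lowest liver (5.70). Their neutrophil means were 4.62, 4.13 and 4.41, above the adjacent livers (3.72 to 4.08) and below control 10 (6.03). Controls 11 and 12 were at 3.98 and 3.83. The unnumbered tumour of mouse 121 also had a low macrophage and Kupffer mean, 5.42, with Pkm at 8.03, below control 10 (8.35). Stellate cell and fibroblast means were 6.54, 6.75 and 6.93 in tumours 123, 81 and 90 and 5.58 to 6.81 in the livers. They were 6.83 and 6.95 in the unnumbered tumour and tumour 3 of mouse 121, and 6.13 to 6.21 in the remaining tumours. Endothelial means ran from 6.02 to 7.12 in tumours and from 6.04 to 6.58 in livers. These 2 list means, and those of macrophage and Kupffer cells and of neutrophils, hide markers that went both ways against adjacent liver. Macrophage and Kupffer differences ran from -2.52 to 0.94, 2 of 7 positive and 3 at an unadjusted limma p under 0.05. Neutrophil differences ran from -0.17 to 1.12, 5 of 8 positive and 0 at an unadjusted limma p under 0.05. Endothelial differences ran from -1.31 to 1.69, 4 of 8 positive and 6 at an unadjusted limma p under 0.05. Stellate cell and fibroblast differences ran from -1.06 to 1.25, 5 of 8 positive and 7 at an unadjusted limma p under 0.05. Cholangiocyte means (5 of 8 markers measured) were 4.94 in tumour 81 and 5.14 in tumour 3 of mouse 121, against 3.86 to 4.20 in the livers and 3.81 to 4.27 in the other tumour arrays. Erythroid means (4 of 8 measured) ran from 4.30 to 5.08 in tumours, 4.87 to 5.22 in adjacent livers and 5.02 to 5.33 in controls, and Pklr is also a red cell gene. No marker of these lists passed with limma, and their part in the members' values was not tested.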

How the data were processed

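Total RNA from 16 samples was amplified (Ovation PicoSL WTA, SPIA), labelled with biotin and hybridised, per the labels' protocols. The authors deposited log2 values of 24479 probe sets, for which the submitters' processing notes name RMA and Partek; raw intensities were not used here. The platform table gave 1 gene symbol to 23281 probe sets, several to 0 and none to 1198, and 2 repeated symbols were dropped, which left 23279 genes. Array medians lay between 4.39 and 4.52, and precision is limited by how many arrays there are.

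The 3 tumours of mouse 121 were averaged, and the 3 groups were fitted together with limma 3.58.1 in R 4.3.3 (lmFit, eBayes with an intensity trend). Benjamini-Hochberg adjustment ran over all 23279 genes, with a threshold of 0.05. Values in every sample are given for members past the threshold, with groups that do not overlap, or with a log2 difference of at least 1 in size, in any comparison. Members, classes and lists were chosen with earlier results of these data known. The mouse number in the titles pairs tumour and adjacent liver of 4 mice, as samples of the same animal; deviations of paired samples from their group means correlated by 0.0998, 0.0349, 0.0817 and 0.0994. Samples of a group are different mice, by their numbers. Alternatives were quantile normalization, median centring, a filter on dim probe sets, no intensity trend, only the groups compared, other treatments of mouse 121, the mouse as a block, and each mouse left out.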

Additional observations from a re-analysis of the deposited data

Results flagged for a closer look

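In 6 of 70 combinations of a member with the adjacent or tumour group (8.57%), 1 mouse stood away from the rest of its group by more than Dixon's criterion allows. Over all genes the share was 7.79%, and chance flags about 1 in 20. Tumour 81 was named for a pair of members: its value was the highest of the tumours for Hk2 (7.10, next 5.08) and for Slc16a3, a lactate exporter (5.47, next 4.61). G6pc was lowest in tumour 90, at 5.26, with the next tumour at 8.52. Ndrg1 was lowest in adjacent liver 81, at 5.17 against 6.30 for the next, and this liver is the partner of tumour 81. Adjacent liver 124 was the highest of its group for Pck2 (4.91, next 4.56) and Gys1 (4.76, next 4.51). The control group, with 3 mice, was not examined in this way.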

How the results depend on the processing

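Over 23 alternatives, 493 of 516 recomputed values kept their direction and side of the threshold or stayed within the spread, 18 gained the threshold or grew in count, 2 lost it and 3 medians moved, 1 of them across 0 (without control 10). Against adjacent liver, members past the threshold numbered 2 (Ndrg1 and Pygb) with dim probe sets filtered out, 2 when mouse was a random replicate block and 0 when it was a fixed replicate block in 4 mice, where Pygb was at 1.95 (adjusted p = 0.111). With 1 mouse left out they numbered 1 to 4, with 4 (Slc2a1, Ndrg1, Pck2 and Pygb) without tumour 93. Against control they numbered 1 (Pygb) with median centring, with the dim filter and with the unnumbered tumour of mouse 121 alone, and 0 to 2 with 1 mouse left out (2 without tumour 93, 1 without tumour 90). For adjacent minus control, the median of fetal, muscle or widely expressed members ran from -0.28 to 0.085 with 1 mouse left out (0.085 without control 10), and that of liver-type members from 0.16 (without adjacent 81) to 0.40 (without control 12). The cause of these changes was not tested, except that the filter tests fewer genes (12787) and the fixed block uses fewer mice. Over all genes, calls against adjacent liver numbered 36, with 0 under the fixed block, 206 under the random block, 181 with the dim filter, 157 with the unnumbered tumour alone, 87 with 8 separate tumours, 23 with quantile normalization, 16 with median centring, 8 with only the groups compared and 5 to 743 with 1 mouse left out. Against control they numbered 6, with 18 under median centring, 35 with the dim filter, 33 with the unnumbered tumour alone, 31 with 8 tumours, 24 under the random block, 3 without the trend and 0 to 242 with 1 mouse left out. The blocked fits changed no other call of a named member than those of Pygb and Ndrg1 against adjacent liver. With 3 to 6 mice a group, differences of dim probe sets and of members that spread widely among tumours are weakly determined.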
